A study of Mus musculus with 6 samples.

Results

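The hedgehog genes examined were 9 listed by symbol: the ligands Dhh and Ihh, the receptor Ptch1, the signal transducer Smo, the ligand-binding inhibitor Hhip, the GLI inhibitor Sufu and the transcription factors Gli1, Gli2 and Gli3. All 9 were found among the 49671 Ensembl genes of the count files and in the authors' deposited comparison table. The RNA was from mouse induced renal epithelial cells (iRECs), which are fibroblasts reprogrammed with kidney transcription factors towards a tubule fate, of strain B6.129S4-Pkd1tm2Ggg/J, grown to confluency in fibroblast medium with serum. Both groups started from cells with floxed Pkd1, the gene of polycystin-1. Cre cultures had been transduced with Cre recombinase and are labelled Pkd1 -/-, and Flp cultures had been transduced with Flp recombinase and are labelled wild type (Pkd1 fl/fl). Clones 4, 7 and 21 each gave 1 Cre and 1 Flp library, so there were 3 libraries per group, and each clone is a single cell line. Whether each clone goes back to an animal of its own is not in the labels, and the p-values then reflect only how far these clone pairs spread.

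Hedgehog ligands are secreted proteins that bind Patched receptors. Unbound Patched keeps Smoothened out of the primary cilium, and ligand binding lifts this block. Smoothened then frees GLI transcription factors from Sufu, so that GLI2 and GLI3 are no longer cut or held as repressors and GLI target genes are switched on. Gli1, Ptch1 and Hhip are the targets most often read as a sign of pathway activity. In the kidney, tubule epithelium is a source of ligand and the neighbouring stroma is the better known responding tissue.

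Total gene counts ranged from 25196120 to 46918341 per library, with more counts in Cre than in Flp for clones 4 and 21 and fewer for clone 7. Pkd1 stood at 145, 105 and 117 CPM (read counts scaled to a common library size with TMM factors) in Cre of clones 4, 7 and 21 and at 198, 229 and 166 CPM in Flp, lower in Cre in each clone. Tubule epithelial markers were present, with 12 of 12 at a mean of at least 1 CPM and a summed level of 5568 to 6909 CPM in Cre and 5917 to 7165 CPM in Flp. Of 12 fibroblast and mesenchymal markers 4 reached that mean, and the list summed to 158 to 307 CPM in Cre and 238 to 338 CPM in Flp, most of it Vim. The others at that mean were Twist1 (15.7 to 26.1 CPM), Pdgfrb (1.54 to 10.2 CPM) and Col1a1 (2.4 to 18.1 CPM). Thy1 was at 0 reads.

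Promoter letters of the members are shown for both ligands, whose values differed in pattern, and for Gli2, which had no reads. Of the 9 members 8 had an entry in the RefSeq promoter table on build GRCm38.p6, and the 250 bases before the annotated start were used. The Dhh stretch lies on the minus strand at chr15:98898541-98898790, the Ihh stretch on the minus strand at chr1:74951673-74951922, and the Gli2 stretch on the minus strand at chr1:119053620-119053869. Capitals mark GC boxes (GGGCGG or its complement) in Dhh and Ihh and a GLI core (ACCACCC or its complement) in Gli2, each read 5′ to 3′ on the gene's strand.
Dhh: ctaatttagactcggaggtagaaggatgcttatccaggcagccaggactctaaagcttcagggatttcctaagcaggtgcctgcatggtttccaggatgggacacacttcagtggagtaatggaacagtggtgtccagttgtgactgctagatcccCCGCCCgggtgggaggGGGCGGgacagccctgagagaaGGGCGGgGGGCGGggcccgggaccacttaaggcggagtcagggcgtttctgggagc
Ihh: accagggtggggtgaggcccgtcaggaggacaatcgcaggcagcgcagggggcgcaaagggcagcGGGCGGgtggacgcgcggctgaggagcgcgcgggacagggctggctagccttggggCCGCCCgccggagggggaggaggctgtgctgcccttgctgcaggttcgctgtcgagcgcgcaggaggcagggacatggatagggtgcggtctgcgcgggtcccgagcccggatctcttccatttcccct
Gli2: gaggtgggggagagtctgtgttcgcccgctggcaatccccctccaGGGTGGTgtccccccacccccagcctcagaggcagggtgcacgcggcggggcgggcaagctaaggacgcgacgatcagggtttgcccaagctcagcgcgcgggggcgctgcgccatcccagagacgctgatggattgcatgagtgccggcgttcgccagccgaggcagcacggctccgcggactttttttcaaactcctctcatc
The Dhh stretch had 9 CpG dinucleotides and 59.6% G or C, against 24 and 72% in Ihh and 22 and 67.2% in Gli2, where the median of all 32851 promoters was 6 CpG. In Dhh 4 GC boxes began 94, 78, 56 and 49 bases before the start, and 2 began 185 and 129 bases before that of Ihh. Gli2 held 1 as well, left in lower case above, which began 157 bases before its start. Among the 8 stretches Smo alone held no GC box, and 32.7% of all promoters held at least 1. The full GLI site GACCACCCA was in none of the 8 stretches on either strand, and 0.225% of all promoters held it. The GLI core, which is part of that site, was found in Gli2 alone among the 8, beginning 205 bases before the start, and in 3.92% of all promoters. These matches describe letters only.

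Levels were first compared between genes, as CPM per kilobase of merged exons. The ligand Ihh was the most abundant member at 39.4 to 55.0, followed by Smo at 26.3 to 35.8 and Sufu at 8.62 to 12.5, and on this scale the 3 ranges did not overlap. Dhh spanned 2.27 to 12.7, overlapping Sufu, Ptch1 (3.69 to 6.86) and Gli3 (1.85 to 2.71). Ptch1 and Gli3 did not overlap each other. Dhh ranked above Sufu in Flp clones 4 and 21 and below Gli3 in Cre clone 7. Part of this order depended on the length used. Per kilobase of the longest transcript, the ranges of Ihh (48.7 to 67.9) and Smo (39.1 to 53.2) overlapped, although Ihh stayed higher within each library. On that length Dhh (2.36 to 13.2) lay below Sufu (14.7 to 21.3) in every library. Ihh exceeded Dhh per kilobase of merged exons in every library, from 3.75 times in Flp clone 4 to 23.5 times in Cre clone 7.

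**Figure D1:**
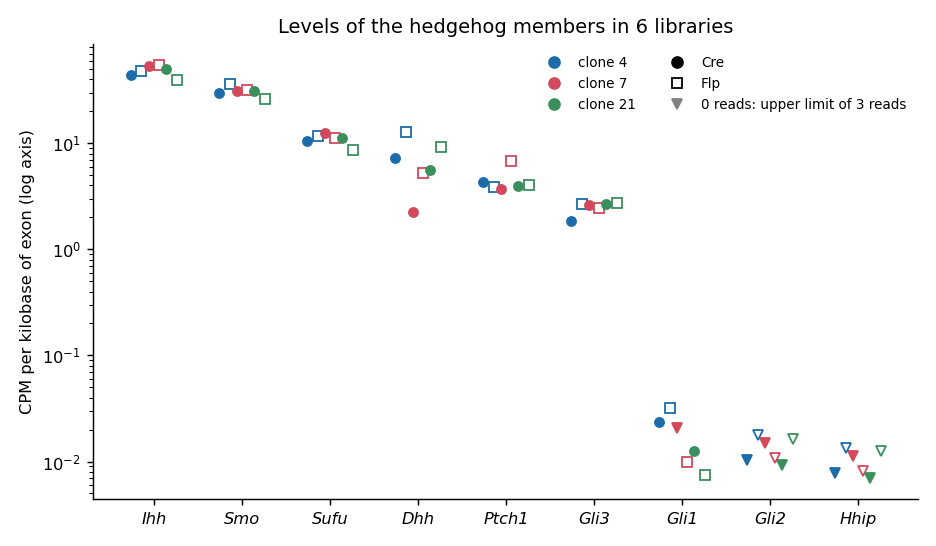
Level of each hedgehog member in CPM per kilobase of merged exons, on a log axis, in the 3 Cre libraries (filled circles) and 3 Flp libraries (open squares), coloured by clone; triangles mark libraries with 0 reads, at the level of 3 reads. Ihh and Smo stand highest in each library, Dhh spreads most among the 6 expressed members, and Gli1, Gli2 and Hhip lie below 0.04.

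The remaining 3 members were at or near 0. Gli1 (chromosome 10, 127329882 to 127341974, GRCm38), a GLI factor that is itself a pathway target, had 5, 0 and 3 reads in Cre of clones 4, 7 and 21 and 4, 2 and 1 reads in Flp, a total of 15. Its level was at most 0.0323 CPM per kilobase. Gli2 (chromosome 1, 118834132 to 119053619), the main GLI activator, and Hhip (chromosome 8, 79965851 to 80058006), a membrane protein that sequesters ligand, had 0 reads in all 6 libraries. A count of 0 allows up to 3 reads, a level between 0.0632 CPM (deepest library) and 0.121 CPM (shallowest), or at most 0.0176 CPM per kilobase for Gli2 and 0.0133 for Hhip. These limits cover counting error only. The authors' deposited table lists 0 for Gli2 and Hhip as well, and a mean normalized count of 2.43 for Gli1 with no adjusted p. Gli3 was the GLI gene with reads at a level that could be tested, at 4962 reads in all. Gli1, Gli2 and Hhip did not pass the filter on low counts and no fold is given for them.

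Between groups, the ligand Dhh was the member that stood lower in Cre in every clone. Desert hedgehog is the ligand best known from Sertoli and Schwann cells (chromosome 15, 98891152 to 98898540). It was at 31.8, 10.0 and 24.5 CPM in Cre of clones 4, 7 and 21, and at 55.9, 22.9 and 40.5 CPM in Flp. Each Cre culture lay below its own Flp culture, and the Flp level was 1.76 times the Cre level for clone 4, 2.29 times for clone 7 and 1.66 times for clone 21. The groups themselves overlapped, since Cre clone 4 was above Flp clone 7, and clone 7 was the lowest of the clones in both groups. The Cre mean was 22.1 ± 11.1 CPM and the Flp mean 39.8 ± 16.5 CPM (SD, n = 3).

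The fitted log2 fold change of Dhh was -0.91 (SE 0.15), with a 95% interval of -1.28 to -0.54, which is 0.412 to 0.689 times the Flp level. Its unadjusted p was 0.0011 and its adjusted p 0.607 by edgeR's quasi-likelihood test with clone as a block and Benjamini-Hochberg adjustment, so it did not pass the threshold of 0.05. By that test 0 of the 6 members that passed the filter were called, and 0 of 15355 genes (0%), with 6.82% of all genes tested at an unadjusted p under 0.05 (1047 genes) and 3.28% of all genes tested there and lower in Cre (503 genes). Dhh was the 1 of the 6 members at such a p. DESeq2 with the same block called Dhh (adjusted p = 7.6e-04), where 1.44% of genes were called and 0.722% called lower in Cre. edgeR without a filter on low counts also called it (adjusted p = 0.0142), where 0.792% were called and 0.357% called lower. With the block and the filter, limma-voom did not call Dhh (adjusted p = 0.507). Nor did edgeR with DESeq2 size factors (adjusted p = 0.604) or upper quartile scaling (adjusted p = 0.603). In the authors' deposited table Dhh has -0.73 as its log2 fold change and 0.0016 as its adjusted p from DESeq2, where 1.37% of genes with an adjusted p were called and 0.555% called lower. All of these fits used the same 6 libraries. Without the clone block Dhh was at -0.84 by edgeR (adjusted p = 0.980) and -0.85 by DESeq2 (adjusted p = 0.818).

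Some measurements bear on the Dhh counts. Its exons share 546 bases, 12.4% of its exon length, with Rhebl1, a small GTPase gene on the same strand. Rhebl1 was at 23.3, 15.7 and 14.1 CPM in Cre of clones 4, 7 and 21 and 22.1, 18.2 and 31.0 CPM in Flp, with log2 ratios of 0.08, -0.21 and -1.14 beside -0.81, -1.19 and -0.73 for Dhh. An antisense gene, Gm49442, overlaps 25.2% of the Dhh exons, and with no strand setting given its reads cannot be told apart from those of Dhh. The 96 expressed genes within 5 Mb of Dhh had median log2 ratios of -0.09, 0.03 and -0.03 in clones 4, 7 and 21. Of 8 Schwann cell markers Cdh19 was at 0 and Sox10 at no more than 0.0497 CPM. That list summed to 242 to 313 CPM in Cre and 300 to 413 CPM in Flp, most of it Erbb3, which epithelial cells also express. Of 8 Sertoli cell markers Dmrt1 was at 0 and the sum was 2.60 to 13.7 CPM in Cre and 1.81 to 13.7 CPM in Flp, with Gata4 leading.

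**Figure D2:**
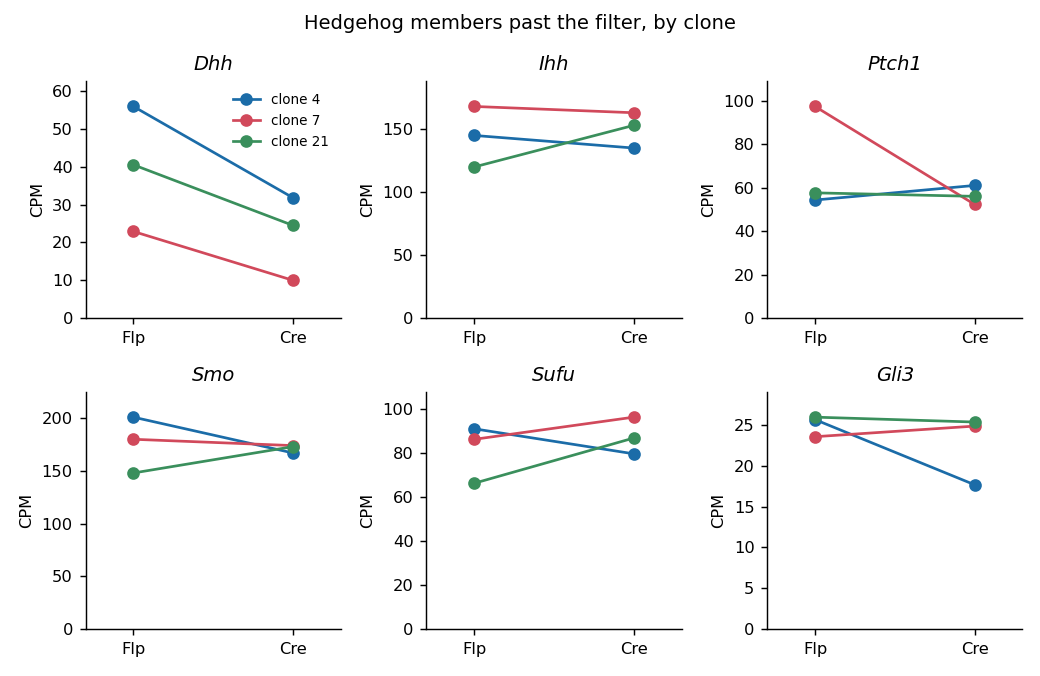
CPM of the 6 members that passed the filter, with a line joining the Flp and Cre library of each clone; every axis starts at 0. All 3 Dhh lines slope down from Flp to Cre, whereas the lines of the other 5 members slope both ways.

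The other ligand, Ihh (Indian hedgehog, chromosome 1, 74945315 to 74951672), is best known from growth plate cartilage and also made by tubule cells. It was at 135, 163 and 153 CPM in Cre of clones 4, 7 and 21 and at 145, 168 and 120 CPM in Flp. The groups overlapped, and only clone 21 was higher in Cre. Its log2 fold change was 0.07 (SE 0.13), with a 95% interval of -0.25 to 0.38 (edgeR adjusted p = 0.973), so changes beyond 0.844 to 1.3 times lie outside the interval. Of 8 chondrocyte markers, Acan, Col9a1 and Matn1 were at 0 reads in every library, while Sox5 (14.9 to 34.0 CPM) and Col11a2 (2.48 to 17.7 CPM) were present in all 6, and the list summed to 25.3 to 34.0 CPM in Cre and 18.4 to 52.0 CPM in Flp. The part of other cell types in the ligand values was not tested.

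The receptor Ptch1 (chromosome 13, 63508328 to 63573598), itself a GLI target, differed in 1 clone. It was at 61.0, 52.3 and 56.0 CPM in Cre of clones 4, 7 and 21 and at 54.3, 97.3 and 57.6 CPM in Flp. Flp clone 7 stood apart, and the other 5 libraries lay within 52.3 to 61.0 CPM. Ptch1 log2 ratios for clones 4, 7 and 21 were 0.17, -0.89 and -0.04, and the fitted value was -0.25 (SE 0.22, 95% interval -0.80 to 0.29, edgeR adjusted p = 0.912). Without clone 7 it was 0.07, and with 1 pair per clone the difference between clones was not tested. The 37 expressed genes within 5 Mb of Ptch1 centred on a clone 7 log2 ratio of -0.05 (median). The level of Ptch1 depended on the source: the authors' deposited table lists a mean normalized count of 1287, where the count files gave 2210, while its log2 fold change there, -0.23, was close to the value here.

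Smo (chromosome 6, 29735503 to 29761365), the membrane protein that Patched holds in check, was at 167, 174 and 173 CPM in Cre of clones 4, 7 and 21 and at 201, 180 and 148 CPM in Flp. The Cre libraries lay within the Flp range. The log2 fold change of Smo was -0.03 (SE 0.13), with a 95% interval of -0.34 to 0.29 and an edgeR adjusted p of 0.990. Per kilobase of merged exons, Smo exceeded its inhibitor Ptch1 by 4.66 times in Flp clone 7 and by 6.47 to 9.36 times in the other 5 libraries.

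Sufu (chromosome 19, 46396896 to 46488804), which tethers GLI proteins in the cytoplasm, was at 79.7, 96.4 and 86.9 CPM in Cre of clones 4, 7 and 21 and at 91.1, 86.3 and 66.3 CPM in Flp. It was lower in Cre in clone 4 and higher in clones 7 and 21. Its log2 fold change was 0.12 (SE 0.14, 95% interval -0.23 to 0.47, edgeR adjusted p = 0.948). Gli3 (chromosome 13, 15463235 to 15730026), the GLI factor best known as a repressor when cut, was at 17.7, 24.9 and 25.4 CPM in Cre and at 25.7, 23.6 and 26.0 CPM in Flp. Cre clone 4 was the lowest and the other 5 libraries lay within 23.6 to 26.0 CPM. The fitted log2 fold change of Gli3 was -0.16 (SE 0.17, 95% interval -0.60 to 0.27, edgeR adjusted p = 0.942).

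**Figure D3:**
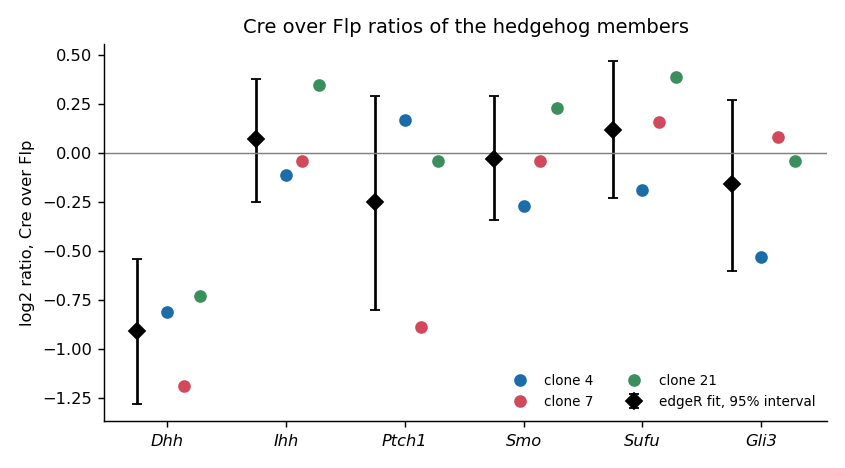
Log2 ratio of Cre over Flp for the 6 members that passed the filter: black diamonds are the edgeR fit with its 95% interval and coloured points are the clones. The Dhh interval, -1.28 to -0.54, lies below 0, and the other 5 intervals include 0.

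Counted over members, 1 of the 6 was lower in Cre in all 3 clones, where 13.1% of all genes tested were, and 0 were higher in all 3, against 14.6%. For 0 of the 6 did the Cre and Flp groups not overlap, against 8.14% of all genes tested. The median log2 fold change of the 6 was -0.10, with 4 negative, and that of all genes tested was 0.00. Members that passed the filter are not all members, as Gli1, Gli2 and Hhip are missing from these counts.

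The libraries' pattern of Dhh was most closely matched by Sema7a (r = 0.998), Tuba8 (0.997) and Acvr1 (0.995), by Pearson's r of log2 CPM over the 6 libraries among 12979 genes averaging 1 CPM or more. Sema7a, a membrane-anchored semaphorin, was at 66.5, 45.1 and 61.2 CPM in Cre of clones 4, 7 and 21 and 84.3, 60.4 and 75.8 CPM in Flp. The log2 fold changes were -0.36 (SE 0.10) for Sema7a, -1.09 (SE 0.31) for the tubulin gene Tuba8 and -0.26 (SE 0.10) for the BMP and activin receptor gene Acvr1. These genes were picked for the highest r with Dhh over the same libraries, so their lower values in Cre follow from that choice. The values describe 6 libraries that share clones in pairs. The other members' r with Dhh ran from -0.635 for Ihh to 0.091 for Smo. For Gli1 no such genes are given, as it did not pass the filter.

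The 5 lists of other hedgehog pathway genes, 81 genes in all, were then read from the same fit. Of the 66 that passed the filter, edgeR's test called 0 higher and 0 lower in Cre at an adjusted p under 0.05, and DESeq2 with the block also 0. At an unadjusted p under 0.05, 3 of the 66 were higher and 5 lower, beside 544 higher and 503 lower of the 15355 genes tested. The median log2 fold change of the 66 was 0.00, the same as over all genes tested, with 33 positive and 33 negative.

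Among 7 genes of ligand processing and release, 6 were tested and had a median of 0.01. Disp1, which releases lipid-modified ligand from the producing cell, had the highest level per kilobase, at a Cre mean of 44.9 ± 2.48 CPM and a Flp mean of 41.6 ± 6.38 CPM (SD, n = 3). Hhat, the enzyme that attaches palmitate to the ligand, had the smallest p of this list, with a log2 fold change of -0.28 (SE 0.20, edgeR adjusted p = 0.889).

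Of 8 co-receptors and ligand-binding genes 4 had a mean of at least 1 CPM. The 5 tested had a median of -0.21 and all were negative, 2 of them in every clone. Gpc3, a glypican that competes with Patched for ligand, was the most abundant per kilobase, at a Cre mean of 531 ± 71.3 CPM and a Flp mean of 541 ± 61.2 CPM (SD, n = 3). The ligand co-receptors Boc and Gas1 stood below 1 CPM (0.0780 and 0.133 CPM in Cre, 0.0828 and 0.0458 CPM in Flp), whereas Cdon was at 54.7 and 63.3 CPM. These 3 were chosen after their values were seen.

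All 20 genes of the ciliary signal relay were tested, with a median of -0.01. Gpr161, a ciliary receptor that keeps the pathway off through cAMP, had the smallest p, and was at 19.2, 21.7 and 15.9 CPM in Cre of clones 4, 7 and 21 and at 27.4, 37.3 and 19.9 CPM in Flp. It was lower in Cre in each clone while Cre clone 7 lay above Flp clone 21, and its log2 fold change was -0.54 (SE 0.16, unadjusted p = 0.0151, edgeR adjusted p = 0.635). Grk2, a kinase that phosphorylates Smoothened, had the highest level per kilobase, with a log2 fold change of -0.01 (SE 0.13).

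Of 26 genes for GLI kinases, ubiquitin ligases and cofactors, 25 were tested, with a median of 0.05. Prkar2b, a regulatory subunit of protein kinase A, had the smallest p and was at a Cre mean of 2.62 ± 0.925 CPM and a Flp mean of 5.13 ± 2.24 CPM (SD, n = 3). Its log2 fold change was -0.93 (SE 0.29, edgeR adjusted p = 0.646) and it was lower in 3 of 3 clones. Prkar1a, another regulatory subunit and the most abundant gene of the list per kilobase, stood at 0.13 (SE 0.11).

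Of 20 GLI target genes 10 had a mean under 1 CPM and 4 had 0 reads in every library, where 36690 of all 49671 genes had such a mean and 21385 had 0 reads. The 10 tested had a median of 0.00. Sox9, a transcription factor of progenitors and injured tubules, had the smallest p and was at 32.0, 11.6 and 17.4 CPM in Cre of clones 4, 7 and 21 and at 53.5, 19.6 and 23.0 CPM in Flp. It was lower in Cre in every clone, with a log2 fold change of -0.63 (SE 0.15, unadjusted p = 0.0056, edgeR adjusted p = 0.607, DESeq2 adjusted p = 0.0547). Jag2, a Notch ligand, named after its values were seen, was at 2.01, 7.85 and 6.67 CPM in Cre of clones 4, 7 and 21 and at 0.928, 4.17 and 2.10 CPM in Flp. It was higher in Cre in every clone, with a log2 fold change of 1.23 (SE 0.30, unadjusted p = 0.0068, edgeR adjusted p = 0.607, DESeq2 adjusted p = 0.0649). The cyclin gene Ccnd1, the most abundant of the list per kilobase, was at a Cre mean of 533 ± 111 CPM and a Flp mean of 603 ± 115 CPM (SD, n = 3). Ccnd2, another cyclin, named after its values were seen, was called by edgeR without the filter (adjusted p = 0.0085). It was not called in the filtered edgeR fit, with a log2 fold change of 2.05 (SE 0.73, adjusted p = 0.686). Nor was it called by DESeq2 with the block (adjusted p = 0.435). It was at 142, 190 and 214 CPM in Cre of clones 4, 7 and 21 and at 28.9, 188 and 15.5 CPM in Flp, so clone 7 hardly differed (log2 ratio 0.02).

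**Figure D4:**
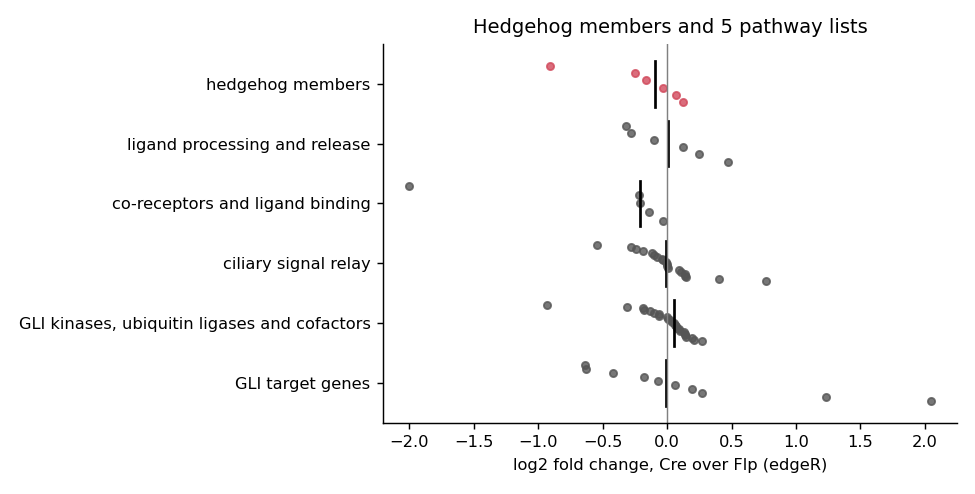
Log2 fold change of Cre over Flp by edgeR for the 6 tested hedgehog members (red) and the tested genes of 5 pathway lists (grey), 1 point per gene, with the median of each list as a black bar. The list medians lie between -0.21 and 0.05, and the points above 1 are Ccnd2 and Jag2.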

How the data were processed

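RNA was sequenced in 6 libraries, 3 Cre and 3 Flp. The submitters' processing notes name STAR 2.5.2b-2, DESeq2 2.11.40.1, Trim Galore 0.4.3.0, featureCounts 1.6.0.3 and FastQC 0.67, and the builds GRCm38 and mm10. The annotation release, the strand setting and whether reads were paired were not given in the sources used here. The authors deposited raw counts per gene, and a comparison table with a mean normalized signal, log2 fold change, standard error, Wald score, p-value and adjusted p-value. Symbols, positions and exon lengths came from GENCODE M21 (GRCm38), in which 49326 of 49671 identifiers had an entry.

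Counts were tested in R 4.3.3 with edgeR 4.0.16 (filterByExpr, TMM, quasi-likelihood), clone as a block, and Benjamini-Hochberg adjustment over all 15355 genes tested. The block follows the labels' clone numbers. The 2 libraries of a clone deviated together only weakly, with r of 0.20 (clone 4), 0.11 (clone 7) and 0.30 (clone 21). Between a Cre and a Flp library of different clones r ran from -0.27 to 0.02. Chi-square per degree of freedom between the 2 libraries was 38.5 for clone 4, 80.2 for clone 7 and 69.7 for clone 21. For libraries of different clones it ran from 44.7 to 97.8, so only the clone 4 pair lay below that range. CPM use TMM-scaled totals, levels per kilobase the merged exons or, as an alternative, the longest transcript, clone ratios a prior count of 2, and standard errors come from the F statistic. The alternatives used DESeq2 1.42.0, limma 3.58.1 (voom), other normalizations, no filter, no block and each clone left out. The members, the lists, the naming rule and the alternatives were chosen with earlier results of these data known. That rule took the members, Pkd1, the smallest p and the highest level per kilobase of each list, and the 3 genes most like Dhh and Gli1. A gene that the rule names is not reported here. Neighbours within 5 Mb had a mean of at least 5 CPM and were examined after the values were seen. Figures used matplotlib 3.10.9.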

Additional observations from a re-analysis of the deposited data

How the results depend on the processing

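The number of genes called was 0 by edgeR with the block and 0 by limma-voom with the block. It was 224 by edgeR without a filter on low counts, 196 by DESeq2 with the clone block, and 14 by DESeq2 without the replicate block. Of the members 1, Dhh, was called without the filter and 1, Dhh again, by DESeq2 with the block, and of the 81 pathway genes 1, Ccnd2, without the filter. With no replicate block, edgeR called 0 genes. The cause of these differences was not tested. Leaving out each clone gave 0 calls among all genes, members and pathway genes. Dhh then ranged from -1.0 to -0.77 and kept its sign in all 10 alternatives, as did Pkd1 (-0.81 to -0.47). Signs changed when a clone was left out for Ihh (-0.08 to 0.15), Ptch1 (-0.47 to 0.07), Smo (-0.16 to 0.09), Sufu (-0.02 to 0.27), Gli3 (-0.28 to 0.02), Disp1 (-0.02 to 0.21), Gpc3 (-0.17 to 0.17), Grk2 (-0.15 to 0.10) and Ccnd1 (-0.46 to 0.10), none of which passed a threshold. Ccnd2 ranged from 1.14 to 3.04 and Rhebl1 from -0.68 to -0.07. With the longest transcript as length the order of mean levels was the same, but means were higher (Sufu from 11 to 18.7, Smo from 30.9 to 46.0). The ranges of Ihh and Smo over the libraries then overlapped, and those of Dhh and Sufu no longer did. Depth limits Gli1, Gli2 and Hhip, which had few reads or none.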

Other observations

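Levels of some pathway genes depended on the source. Over 71 members and pathway genes with a value in both sources, the mean normalized count in the authors' deposited table had a median of 0.962 times that of the count files, and 7 differed by more than 1.5 times. Gpr161 was listed at 254 in the authors' deposited table against 825 from the count files, and Ptch1 at 1287 against 2210. The others were Scube3, Ptchd1, Glg1, Csnk1a1 and Spopl. Dhh was at 1050 in the authors' deposited table and 1084 from the count files.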
